A study of Mus musculus with 7 samples.

Results

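Lymphatic endothelial cells of the mouse mammary gland were compared with the vascular endothelial cells of the same glands. Members were taken by the cell type names that the authors deposited for each cell, which gave 28 lymphatic and 1819 vascular endothelial cells among 13684 cells of 13 types. The comparison used the 5 mice with 3 or more lymphatic endothelial cells and summed the cells of each type within each mouse, so 25 lymphatic and 1270 vascular cells (1295 in all) gave 10 sums. Young A gave 5 lymphatic and 409 vascular cells, Young C 3 and 145, Aged B 5 and 285, Aged C 7 and 183, and Aged D 5 and 248. Young B (1 lymphatic cell) and Aged A (2 lymphatic cells) were left out of the sums and are used where single cells are described.

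The tissue was the #4 (abdominal) mammary gland, freed of its lymph nodes and dissociated, from virgin females at diestrus, whose mixed genetic background held FVB, 129 and C57BL/6J. Young mice were 3-4 months and aged mice 13-14 months old, and each mouse gave 1 library of the 10× Chromium platform. The values are counts of unique molecular identifiers (UMIs), which mark single captured mRNA molecules. Levels are given below as CPM, the UMIs of a gene per 1000000 UMIs of a sum, always in the order Young A, Young C, Aged B, Aged C and Aged D. Since each mouse gave 1 library, differences between mice and between libraries cannot be told apart.

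Lymphatic vessels drain fluid, lipid and immune cells from tissue and return them to the blood. Their endothelium arises largely from veins under the transcription factor Prox1, is kept by the growth factor receptor Flt4 (VEGFR3) and guides dendritic cells and lymphocytes with the chemokine Ccl21. Blood endothelium takes up fatty acids in its capillaries and displays selectins to leukocytes in its venules. Both kinds of endothelium carry the VEGF-A receptor Kdr.

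The lymphatic sums were shallow. They held 18940 to 49506 UMIs, against 727600 to 2058371 in the vascular sums, so that 1 UMI was worth 20.2 to 52.8 CPM in a lymphatic sum. A gene without any lymphatic UMI is therefore given as a bound, computed against 3 counts over the 5 lymphatic sums (19.7 CPM). For a gene with 1 to 3 UMIs in a type, the ratio of the pooled counts is given with its exact interval, which covers counting error only. Per cell, depth leaned the other way: the median lymphatic cell held 835.3 ± 1088 (SD of the paired difference, n = 5) more UMIs than the median vascular cell of its mouse (exact two-sided sign-flip test, p = 0.1875). The median percent of mitochondrial UMIs was lower in the lymphatic cells of 5 of 5 mice, with a mean difference, lymphatic minus vascular, of -0.382 ± 0.321 (SD) percentage points (exact p = 0.0625, the smallest that 5 mice allow, and 0.1875 when adjusted over the 3 measures of depth and quality tested). With Young B and Aged A, whose 1 and 2 lymphatic cells lay higher, the mean difference was 0.303 points (exact p = 0.875).

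The 4 markers Prox1, Flt4, Mmrn1 and Ccl21a were counted in single cells. The authors named the lymphatic cells by these same genes, so the counts describe the deposited label and cannot test it. Of the 28 lymphatic cells, 22 held UMIs of 2 or more of the 4 markers, and 12 held 3 or more. Of the 1819 vascular cells, 5 (0.275%) held 2 and 0 held 3. Prox1 was found in 60.7% of lymphatic cells (95% Wilson interval 42.4 to 76.4%), in 0.99% of vascular cells and in 2.25% of hormone-sensing luminal cells, which served as background. The median UMIs per cell of these types were 6050.5, 4907 and 7277. With every cell thinned to 2000 UMIs the share was 32.1% in lymphatic and 0.440% in vascular cells. Ccl21a was found in 39.3% of lymphatic, 0.935% of vascular and 1.26% of hormone-sensing luminal cells, and in 39.3% of lymphatic cells after thinning. Conversely, Flt1, the decoy receptor for VEGF-A on blood vessels, had a UMI in 0 of 28 lymphatic cells, which allows a share of up to 10.7%, and in 80.1% of vascular cells. Among the lymphatic cells, 2 cells of Aged B had no UMI of any of the 4 markers, although both held Maf and Nts and 1 held Tbx1. Scrublet called 1 lymphatic cell a doublet, also in Aged B, so counts without Aged B are given below. Of the lymphatic cells, 1 had a barcode that another library also held.

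Across all genes, 3838 passed the filter on low counts and 688 (17.9%) differed at an adjusted p under 0.05 and at least 1.5-fold. Of these, 204 (5.32% of the genes tested) were higher and 484 (12.6%) lower in lymphatic cells, and the median log2 fold of all tested genes was -0.29. The shares of 5.32% and 12.6% are given as a description beside the counts of the gene lists below. The lists were chosen with earlier results of these data known. A list's count therefore cannot test whether its genes differed more often than other genes. Several lists also hold Prox1, Flt4, Mmrn1 or Ccl21a, by which the authors named the lymphatic cells. Every lymphatic sum lay above every vascular sum for 123 genes (3.20%) and below for 437 (11.4%). These counts used CPM scaled by the TMM factors of the fit, while the levels of single genes are given unscaled. Because the cells were named by clustering these same transcripts, the adjusted p-values are not independent evidence that the types differ. The test draws a gene's spread largely from all genes together, so a small p does not show that the gene was steady over mice. Without Aged B, 586 genes were called (189 higher, 397 lower). The balance of directions moved with depth: with each vascular sum thinned to the UMIs of its lymphatic sum, 407 genes could be tested and 65 of the 97 called (67.0%) were higher in lymphatic cells, against 29.7% at full depth, and without the filter 13.6% of 1438 calls were higher.

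Most tested transcription factors of lymphatic identity were higher in lymphatic cells. Of 13 listed, 11 were tested, 7 were higher, 0 were lower and the median log2 fold was 1.74. Of all genes, 5.32% were higher. Prox1, by which the authors named the cells, counts in this list, so both shares are given as a description. Prox1, which specifies and maintains the lymphatic fate, stood at 345, 264, 149, 182 and 63.5 CPM in the lymphatic sums and at 2.91, 5.50, 2.10, 1.78 and 0.635 CPM in the vascular sums. Every lymphatic sum lay above every vascular sum, with the lowest lymphatic value in Aged D (log2 fold 6.09 ± 0.51 (SE), adjusted p = 2.84e-30, or 68.2-fold). Its mean level in lymphatic cells, 201 CPM, was followed by hormone-sensing luminal cells at 3.14 CPM. Tbx1, a T-box factor needed for lymphatic vessel growth, had 22 lymphatic UMIs and 1 vascular UMI, a pooled ratio of 1001-fold (95% counting interval 162 to 41316) (adjusted p = 1.38e-31). Maf, a leucine zipper factor, was 127 to 369.6 CPM in lymphatic and 0.698 to 5.50 CPM in vascular sums (log2 fold 6.26 ± 0.50 (SE), adjusted p = 8.54e-34), although Ma macrophages reached a mean of 343 CPM against 239.5 in lymphatic cells.

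Factors tied to flow and valves followed. Klf2, which responds to shear stress, stood at 10812, 4488, 11922, 14463 and 7465 CPM in lymphatic and 1621, 833, 863, 719 and 604 CPM in vascular sums. The groups did not overlap (log2 fold 3.11 ± 0.28 (SE), adjusted p = 1.38e-26), and within the lymphatic type Klf2 reached from 5 to 230 UMIs per cell in the compared mice. Foxc2, required for lymphatic valves, was 40.4 to 159 CPM against 0 to 16.5 CPM (log2 fold 3.04 ± 0.61 (SE), adjusted p = 1.44e-05). Gata2 and Nfatc1, which also act in valve formation, were higher by log2 folds of 1.46 (adjusted p = 0.00781) and 1.74 (adjusted p = 0.00559). Both calls rested on few UMIs, with Gata2 at 0 in Young A and Nfatc1 at 0 in Aged B. Gata2 lost its call without Aged B (adjusted p = 0.0984) or Aged C (0.248), and Nfatc1 without Young C (0.179). The venous factor Nr2f2, a partner of Prox1, had a log2 fold of 0.96 and was not called (adjusted p = 0.131), and Sox18 had too few UMIs to be tested (2 lymphatic, 67 vascular).

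Among 17 receptors and surface proteins of lymphatic endothelium, 12 were tested, 6 were higher and 3 lower, with a median log2 fold of 0.76. Flt4, by which the authors named the cells, counts in this list. Flt4, the receptor for VEGF-C and VEGF-D, stood at 376, 422, 149, 141 and 191 CPM in lymphatic and 14.1, 8.25, 4.19, 6.24 and 3.17 CPM in vascular sums (log2 fold 4.81 ± 0.44 (SE), adjusted p = 1.56e-25, or 28-fold), without overlap. Podoplanin (Pdpn), the mucin-like ligand of platelet CLEC-2, was 157, 317, 49.7, 606 and 127 CPM in lymphatic and 1.40 to 8.25 CPM in vascular sums (log2 fold 5.87 ± 0.45 (SE), adjusted p = 3.08e-36). Aged C was the high sum, with Pdpn in 7 of its 7 lymphatic cells. Myoepithelial cells, which also carry Pdpn, had a mean of 218 CPM against 251 in lymphatic cells. The surface glycoprotein Thy1 (log2 fold 5.09, adjusted p = 4.81e-30), the scavenger receptor Stab1 (2.80, adjusted p = 8.44e-11) and the tetraspanin Cd9 (1.66, adjusted p = 3.03e-09) were also higher in every mouse. Cd63 was higher by a log2 fold of 0.84 (adjusted p = 0.0132), a call lost without Young A (adjusted p = 0.0506) or Young C (0.104).

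Other receptors on the list went the other way or were too rare to test. Nrp2, the co-receptor of Flt4, was lower in lymphatic cells, at 62.7, 158, 49.7, 80.8 and 63.5 CPM against 119, 169, 179, 267 and 170.1 CPM in vascular sums (log2 fold -1.48 ± 0.46 (SE), adjusted p = 0.00952), and its call was lost without Aged C (adjusted p = 0.0802). Cd200, which dampens myeloid cells, was lower as well (log2 fold -2.06 ± 0.38 (SE), adjusted p = 1.57e-06), and so was the adhesion receptor Adgrl4, with 2 lymphatic UMIs and a vascular to lymphatic ratio of 12.8-fold (95% counting interval 3.54 to 106). Lyve1, the hyaluronan receptor known from lymphatic capillaries and from some macrophages, did not pass the filter. It stood at 1191, 1109, 0, 101 and 95.3 CPM in lymphatic and 0 to 1.37 CPM in vascular sums, 67 against 4 UMIs, a pooled ratio of 762-fold (95% counting interval 284 to 2879). Its mean was 540 CPM in Ma macrophages and 499 CPM in lymphatic cells. The chemokine scavenger Ackr4 was at 282, 0, 99.3, 20.2 and 0 CPM in lymphatic sums, with 12 UMIs against 3 in vascular sums (182-fold (95% counting interval 49.1 to 1005)). The integrin Itga9 was not tested either (12 against 78 UMIs, 7.0-fold (95% counting interval 3.47 to 12.9)).

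Of the lists of lymphatic genes, that of secreted proteins had the highest median. Of 15 listed, 11 were tested, 8 were higher and 0 lower, with a median log2 fold of 3.36. Ccl21a and Mmrn1, by which the authors named the cells, count in this list. Ccl21a, the ligand of the homing receptor CCR7, stood at 29490.1, 48310.5, 19770.5, 13655 and 14327 CPM in lymphatic sums, and at 2.43, 0, 0, 0.891 and 3.17 CPM in vascular sums. That is 3381 lymphatic against 11 vascular UMIs (log2 fold 13.45 ± 0.48 (SE), adjusted p = 4.29e-168), with a mean of 25110.5 CPM against 65.0 CPM in the next type, myoepithelial cells. Reads of near-identical Ccl21 copies may have been split among genes or left out by the counting, so which copy gave the UMIs is uncertain. The other entries named Ccl21 held few, with 2 UMIs for Ccl21b.1 and 0 for Ccl21b and Ccl21c in the lymphatic sums. Mmrn1 (multimerin), a matrix and platelet glycoprotein, stood at 1222, 1637, 199, 424 and 191 CPM in lymphatic sums. Its vascular sums held 2 UMIs in all, for a ratio of 2298-fold (95% counting interval 619.9 to 19234) (adjusted p = 1.01e-76).

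Smaller secreted signals followed the same direction. Neurotensin (Nts), a peptide hormone, stood at 972, 2851, 3477, 263 and 31.8 CPM in lymphatic and 1.46, 0, 68.4, 9.80 and 9.52 CPM in vascular sums (log2 fold 6.11 ± 0.36 (SE), adjusted p = 2.76e-62). The sums hide single cells: 69 of the 70 Nts UMIs of Aged B came from 1 cell, and 50 of the 54 of Young C from another. Interleukin 7 (Il7), a survival factor for lymphocytes, was 40.4 to 127 CPM against 0 to 3.81 CPM (log2 fold 5.52 ± 0.65 (SE), adjusted p = 9.32e-13). Fgl2 (log2 fold 3.36, adjusted p = 5.98e-23), the proteoglycan Prelp (3.00, adjusted p = 2.17e-15) and the lipopolysaccharide-binding protein Lbp (2.08, adjusted p = 2.16e-08) were higher in every mouse. The guidance cue Sema3d had 18 lymphatic against 3 vascular UMIs (273-fold (95% counting interval 79.7 to 1447), adjusted p = 1.84e-23). Sema3a, which patterns lymphatic valves, was not tested but had 7 lymphatic and 0 vascular UMIs, at least 106-fold higher against 3 counts over the vascular sums. Reln, the glycoprotein reelin, was not tested (15 against 4 UMIs, 171-fold (95% counting interval 54.4 to 706)).

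Outside the lists, the 15 called genes with the largest fold that were higher in 5 of 5 mice also held Duoxa2, Pard6g, C2, Nrxn2, Slc45a3, Nsg1 and Gm14964. Duoxa2, the maturation factor of a dual oxidase, had 20 lymphatic and 0 vascular UMIs, at least 303-fold higher (adjusted p = 4.25e-29). Pard6g, a cell polarity protein, was 202 to 439 CPM in lymphatic and 0.698 to 1.37 CPM in vascular sums (log2 fold 7.74 ± 0.51 (SE), adjusted p = 2.55e-48). Nsg1, an endosomal protein best known from neurons, was 397 to 792 CPM against 4.19 to 13.1 CPM (log2 fold 5.92 ± 0.37 (SE), adjusted p = 1.32e-53). Complement factor C2 rested on 14 against 7 UMIs and Nrxn2 on 12 against 5, and both were higher in every mouse (adjusted p = 1.33e-16 and adjusted p = 9.87e-14).

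**Figure D1:**
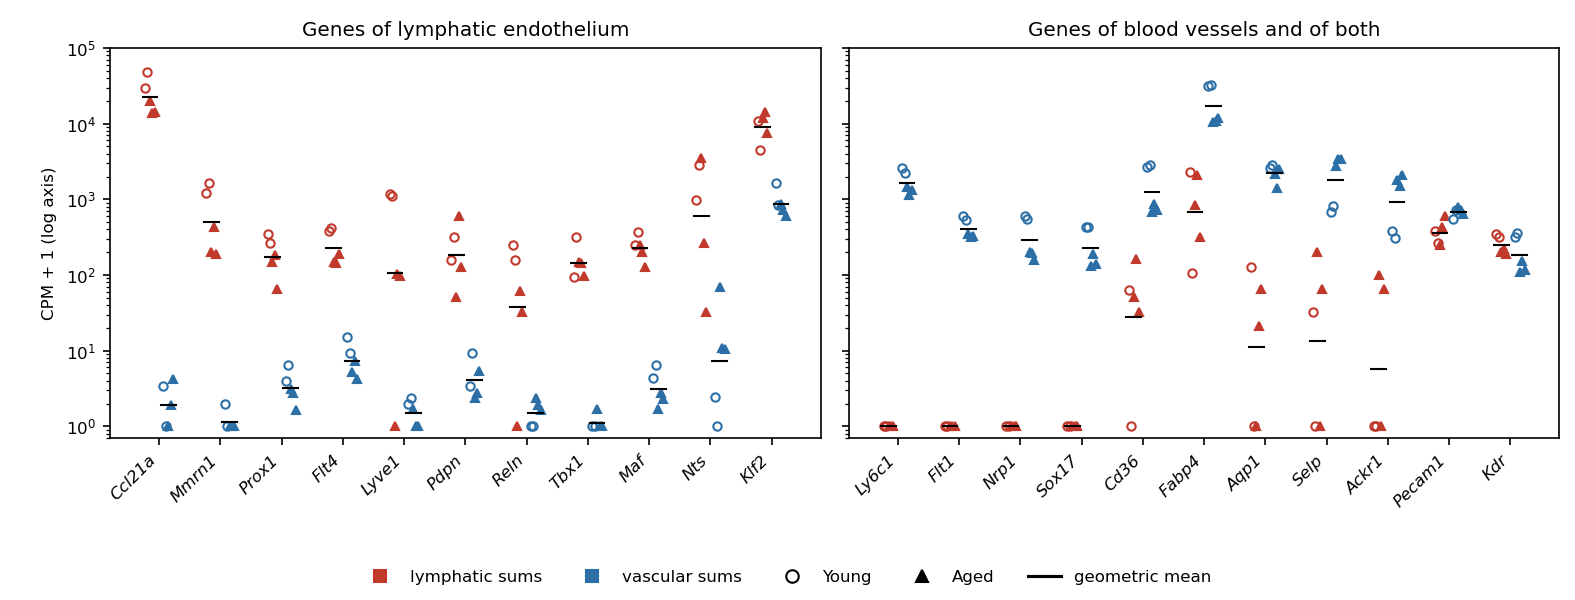
Level of each named gene in the lymphatic and the vascular sum of each of the 5 mice, as CPM + 1 on a log axis; each point is 1 sum and bars are geometric means. The lymphatic markers Prox1, Flt4, Mmrn1 and Ccl21a lie higher in every lymphatic sum, and genes such as Ly6c1 and Flt1 lie at 0 CPM in every lymphatic sum.

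The start site regions of 3 of these secreted genes are shown because their lymphatic levels set them apart and their letters differ in the motifs searched. The windows hold 250 bases before to 50 after a RefSeq start on GRCm38.p6, written 5′ to 3′ along the gene, with capitals for any match on either strand to 8 short motifs, which do not overlap in them: a SOX core of ACAAT, an AP-1 site of TGAGTCA, an ETS site of CAGGAAG, a KLF site of CACACCC, an NR2F site of AGGTCA, a FOX site of GTAAACA, an RBPJ site of GTGGGAA and, for factors of the GATA family, the letters AGATAA. Ccl21a lies at chr4:42773942-42774241 (minus strand), Mmrn1 at chr6:60944067-60944366 (plus strand) and Nts at chr10:102490369-102490668 (minus strand).
Ccl21a: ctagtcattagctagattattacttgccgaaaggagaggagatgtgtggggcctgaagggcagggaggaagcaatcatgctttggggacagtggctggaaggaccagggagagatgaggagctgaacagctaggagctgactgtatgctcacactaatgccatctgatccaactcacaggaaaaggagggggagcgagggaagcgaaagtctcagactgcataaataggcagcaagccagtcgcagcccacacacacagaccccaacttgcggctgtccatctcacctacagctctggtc
Mmrn1: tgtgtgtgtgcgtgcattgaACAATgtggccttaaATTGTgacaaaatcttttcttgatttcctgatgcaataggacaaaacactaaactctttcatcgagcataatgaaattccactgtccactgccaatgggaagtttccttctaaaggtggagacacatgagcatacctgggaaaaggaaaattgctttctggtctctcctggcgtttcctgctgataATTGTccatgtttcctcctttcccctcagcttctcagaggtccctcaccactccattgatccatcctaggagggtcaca
Nts: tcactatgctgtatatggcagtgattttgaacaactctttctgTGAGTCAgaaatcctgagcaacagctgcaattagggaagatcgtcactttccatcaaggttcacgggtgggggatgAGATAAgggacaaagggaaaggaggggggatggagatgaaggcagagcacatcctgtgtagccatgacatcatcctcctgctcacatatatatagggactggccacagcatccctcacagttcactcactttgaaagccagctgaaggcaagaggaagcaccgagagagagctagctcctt

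Mmrn1 held 3 matches to the SOX core, Nts 1 GATA and 1 AP-1 match, and Ccl21a none. The windows of Prox1, Flt4 and Tbx1 held 0 matches as well. Of the 21 genes of the lymphatic lists that were called higher, 15 had a window in RefSeq, and 26.7% of these 15 held the SOX core against 34.4% of all 27025 genes with a window. The AP-1 site was in 13.3% against 5.95% of all genes, and each of the other 6 motifs in 6.67%, that is in 1 gene. Over all genes with a window, those 6 were found in 12.7% (GATA), 14.8% (ETS), 9.05% (KLF), 18.1% (NR2F), 4.05% (FOX) and 7.25% (RBPJ). Of the genes of the blood vessel lists called lower, 14 had a window, of which 21.4% held the SOX core, 28.6% the ETS site and 35.7% the NR2F site. These counts describe letters in short windows and say nothing of binding.

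Genes shared by all endothelium were detected in lymphatic cells, many at lower levels. Of 20 listed and tested, 0 were higher, 10 were lower and the median log2 fold was -1.07. Pecam1 (CD31), the junctional adhesion molecule used to sort endothelium, stood at 376, 264, 248, 424 and 604 CPM in lymphatic and 556, 723, 794, 717 and 644 CPM in vascular sums (log2 fold -1.07 ± 0.29 (SE), adjusted p = 0.00239), with Aged D overlapping the vascular range. VE-cadherin (Cdh5) was 158 to 348 CPM against 349 to 699.6 CPM (log2 fold -1.09 ± 0.31 (SE), adjusted p = 0.0047). Endoglin (Eng), a co-receptor for BMP9, was 95.3 to 188 CPM against 379.7 to 402 CPM (log2 fold -1.60 ± 0.35 (SE), adjusted p = 8.05e-05). Cd34, the sialomucin of blood capillaries, had 3 lymphatic UMIs and a vascular to lymphatic ratio of 14.1-fold (95% counting interval 4.83 to 68.7). The transcription factor Ets1 was lower too (log2 fold -3.56 ± 0.55 (SE), adjusted p = 4.07e-09). In contrast, Egfl7 (log2 fold 0.10, adjusted p = 0.871) and endomucin, Emcn (-0.37, adjusted p = 0.423), did not pass the test.

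The VEGF receptors divided. Of 16 genes of the VEGF and angiopoietin axis, 10 were tested, Flt4 was higher, 3 were lower and the median log2 fold was -0.67. Kdr (VEGFR2), which both vessel systems use, stood at 345, 317, 199, 222 and 191 CPM in lymphatic and 319.7, 357, 108, 149.7 and 114 CPM in vascular sums, and the sums overlapped (log2 fold 0.12 ± 0.34 (SE), adjusted p = 0.87). Flt1 was at 0 in every lymphatic sum and at 602, 532, 351, 316 and 322 CPM in vascular sums, at least 21.9-fold lower (adjusted p = 5.79e-20). Nrp1, the co-receptor of Kdr, was also at 0 in every lymphatic sum, against 595, 544, 203, 193 and 156 CPM in vascular sums, at least 17.4-fold lower (adjusted p = 8.71e-16). Vegfc, the ligand of Flt4, had 0 lymphatic and 219 vascular UMIs and was not tested. The angiopoietin receptors Tek and Tie1 were not called (log2 folds -0.73 and 0.60).

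Capillary and fatty acid genes of blood vessels were lower. Of 16 blood capillary genes, 13 were tested, 11 were lower and 0 higher, with a median log2 fold of -4.44 (-3.39 with genes lacking lymphatic UMIs set at their bound). Ly6c1, a surface antigen of capillary and arterial endothelium, was at 0 in every lymphatic sum and at 2563, 2218, 1471, 1152 and 1334 CPM in vascular sums, at least 90.8-fold lower (adjusted p = 5.16e-46). In the mice outside the sums, 2 lymphatic cells held 1 Ly6c1 UMI each. The water channel Aqp1 was 125, 0, 0, 20.2 and 63.5 CPM in lymphatic and 1428 to 2844 CPM in vascular sums (log2 fold -5.87 ± 0.41 (SE), adjusted p = 5.31e-43), and the 2 lymphatic cells of Aged A, outside the sums, held 15 UMIs of it. Rgcc, a cell cycle regulator marking capillaries, had 1 lymphatic UMI and a vascular to lymphatic ratio of 128-fold (95% counting interval 23 to 5054). Plvap, which forms the diaphragms of fenestrae and caveolae, stood at 877, 0, 1093, 989.8 and 1017 CPM in lymphatic and 737, 763, 1845, 1259 and 1953 CPM in vascular sums. It was at 0 in Young C, above the vascular sum in Young A and below it in the Aged mice (log2 fold -1.01 ± 0.27 (SE), adjusted p = 0.00254).

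Of 17 genes of fatty acid handling, 12 were tested, 11 were lower and 0 higher, with a median log2 fold of -3.48 (-2.69 at the bounds). Fabp4, the fatty acid binding protein of adipocytes and capillaries, stood at 2288, 106, 844, 2081 and 318 CPM in lymphatic and 31300.5, 32100.1, 10546, 10889.6 and 11897 CPM in vascular sums (log2 fold -4.44 ± 0.33 (SE), adjusted p = 5.37e-38, or 21.7-fold lower). The fatty acid transporter Cd36 was 0 to 162 CPM against 683 to 2838 CPM (log2 fold -4.41 ± 0.39 (SE), adjusted p = 1.36e-27). Fabp5 was 20.8-fold lower (adjusted p = 3.48e-20), and the lipoprotein receptor Scarb1 had 2 lymphatic UMIs (31.7-fold (95% counting interval 8.76 to 262) lower). Gpihbp1, which anchors lipoprotein lipase in capillaries, was 3.37-fold lower (adjusted p = 3.24e-06), and its lymphatic sums reached 31.8 to 634 CPM. Lipoprotein lipase (Lpl) itself was the tested gene that was not called (log2 fold -0.54 ± 0.53 (SE), adjusted p = 0.558).

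Most tested venular genes and leukocyte adhesion molecules were lower as well. Of 15 venous and postcapillary genes, 12 were tested, 7 were lower and 1 was higher, with a median log2 fold of -2.20. P-selectin (Selp), on which leukocytes roll, stood at 31.3, 0, 199, 0 and 63.5 CPM in lymphatic and 680.1, 822, 2748, 3440.3 and 3359.9 CPM in vascular sums (log2 fold -5.88 ± 0.43 (SE), adjusted p = 5.34e-39). The chemokine-binding receptor Ackr1 was 0, 0, 99.3, 0 and 63.5 CPM in lymphatic sums against 305 to 2086 CPM (log2 fold -5.88 ± 0.49 (SE), adjusted p = 8.4e-31). The gene that was higher was Plat, tissue plasminogen activator (log2 fold 2.01 ± 0.44 (SE), adjusted p = 8.67e-05), which reached 445 CPM in Aged D and lost its call without that mouse (adjusted p = 0.0985). Of 15 leukocyte adhesion molecules, 13 were in the matrix, 8 were tested and 5 were lower, with the same median of -2.20. Vcam1 was 8.16-fold lower (adjusted p = 1.39e-08), Icam1 2.60-fold lower (adjusted p = 5.47e-05), and Sele had 2 lymphatic UMIs (16.4-fold (95% counting interval 4.54 to 136) lower).

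Of 17 chemokines and chemokine receptors of endothelium, 9 were tested; Ccl21a was higher and 7 were lower, with a median log2 fold of -2.87. The interferon-induced chemokines Cxcl9 and Cxcl10 were at 0 in every lymphatic sum, at least 13-fold and at least 21-fold lower (adjusted p = 1.44e-13 and adjusted p = 6.14e-18). Their vascular sums were 114 to 478 CPM for Cxcl9 and 148 to 655 CPM for Cxcl10. The neutrophil attractant Cxcl1 was 0, 0, 149, 20.2 and 1366 CPM in lymphatic sums (log2 fold -2.40 ± 0.36 (SE), adjusted p = 1.73e-09). Aged D lay above the vascular range of 138 to 1275 CPM, with 31 of its 43 UMIs in 1 cell, while the other lymphatic sums lay below the vascular sums of their mice and both Young ones were at 0.

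Arterial genes were lower or did not pass the test. Of 16 listed, 11 were tested, 5 were lower (3 without Aged C) and 0 higher, with a median log2 fold of -0.25. Sox17, the arterial SOX factor, was at 0 in every lymphatic sum and at 429, 430.2, 131, 187 and 139.7 CPM in vascular sums, at least 13.3-fold lower (adjusted p = 4.53e-13). Of 16 genes of the Notch pathway, 9 were tested, 2 were higher and 2 lower, with a median log2 fold of 0.36. The Notch target Hes1 stood at 3792, 8078, 7103, 6767 and 3685 CPM in lymphatic and 1979, 1458, 863, 817 and 951 CPM in vascular sums, without overlap (log2 fold 2.02 ± 0.26 (SE), adjusted p = 1.04e-12). The glycosyltransferase Lfng, which modifies Notch, was higher (log2 fold 2.28 ± 0.59 (SE), adjusted p = 0.0013). Its relative Mfng and the Notch feedback inhibitor Nrarp were at 0 in every lymphatic sum, at least 3.05-fold and at least 2.88-fold lower (adjusted p = 0.00147 and adjusted p = 0.00103), calls that DESeq2 did not make.

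Junction and guidance genes were mixed. Of 24 junction genes, 18 were tested, 2 were higher and 5 lower, with a median log2 fold of -0.44. Claudin 5 (Cldn5), which seals endothelial tight junctions, stood at 3729, 2639.9, 2881, 3111 and 2668 CPM in lymphatic and 1898, 2764, 652, 848 and 454 CPM in vascular sums (log2 fold 1.24 ± 0.26 (SE), adjusted p = 3.06e-05). The lymphatic sum was above the vascular sum in 4 of 5 mice, Young C being the exception. Jam2 was at 0 in every lymphatic sum, at least 11.4-fold lower (adjusted p = 3.1e-12), and Esam was 5.45-fold lower (adjusted p = 3.47e-09). Of 25 semaphorin, ephrin, slit and reelin genes, 13 were tested, with a median log2 fold of -1.23 (-0.91 at the bounds). Of these, Sema3d was higher and 4 were lower (Sema7a, Robo4, Sema3g and Efnb1). The share that was higher lay near the 5.32% of all genes. Sema3g lost its call without Aged C (adjusted p = 0.0643) and Efnb1 without Young A (0.0585). Without Aged C, Sema3d had too few UMIs to be tested.

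Matrix genes were mixed. Of 27 genes of basement membrane and matrix, 20 were tested, 6 were higher, 7 lower and 7 not called, with a median log2 fold of -0.18; with a mouse left out, 4 to 5 were higher. Igfbp7, a secreted binding protein of blood endothelium, stood at 188, 317, 0, 60.6 and 222 CPM in lymphatic and 5371, 4398, 4322, 3988 and 4152 CPM in vascular sums (log2 fold -5.19 ± 0.35 (SE), adjusted p = 3.97e-46). Sparcl1 was at 0 in every lymphatic sum, at least 25.6-fold lower (adjusted p = 8.52e-23), and Sparc was 12-fold lower (adjusted p = 3.21e-22). Igfbp5 was higher, at 407, 1320.0, 248, 667 and 31.8 CPM against 25.7, 175, 14.7, 18.7 and 24.8 CPM (log2 fold 3.36 ± 0.36 (SE), adjusted p = 2.89e-18). The laminin chain Lamb1 (log2 fold 2.39 ± 0.57 (SE), adjusted p = 0.000425) and the TGF-beta binding protein Ltbp4 (log2 fold 1.32 ± 0.34 (SE), adjusted p = 0.00133) were higher, calls lost without Aged C (adjusted p = 0.0755) and Young C (0.2), respectively. The laminin chain Lama4, also called higher, lost its call without Aged B (adjusted p = 0.0874), Aged C (0.588) or Aged D (0.176). Fibronectin (Fn1) was called higher (log2 fold 1.51 ± 0.53 (SE), adjusted p = 0.0285) from 219, 317, 0, 0 and 31.8 CPM against 19.9, 49.5, 25.1, 30.3 and 19 CPM. Only the Young lymphatic sums lay above the vascular range, the call was lost without Young A (adjusted p = 0.568) or Young C (0.384), and the direction turned in the Aged mice alone (log2 fold -1.65).

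Of 20 genes of BMP and TGF-beta signaling, 16 were tested, 3 were higher and 1 (Eng) was lower, with a median log2 fold of -0.06. Over all genes, 5.32% were higher and 12.6% lower. Gdf15, a stress-induced member of the family, stood at 439, 1267, 1292, 5312 and 953 CPM in lymphatic and 76.3, 203, 187, 224 and 291 CPM in vascular sums, without overlap (log2 fold 2.61 ± 0.28 (SE), adjusted p = 2.97e-18). Aged C was the high sum, with 263 of 357 UMIs spread over 7 of its 7 cells. The receptor Tgfbr2 was higher (log2 fold 1.52 ± 0.45 (SE), adjusted p = 0.00591), a call lost without Aged C (adjusted p = 0.0541) or Aged D (0.122).

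Immediate early and stress genes were more often higher than lower in lymphatic cells. Of 24 listed and tested, 11 were higher and 1 lower, with a median log2 fold of 0.66; without Aged B, 7 were higher. Fos stood at 9276, 4593, 27818, 12200.5 and 8545 CPM in lymphatic and 3638, 2569, 3708, 2079 and 1909 CPM in vascular sums, without overlap (log2 fold 1.70 ± 0.27 (SE), adjusted p = 1.62e-08). Jun (1.83, adjusted p = 5.67e-10), Socs3 (1.70, adjusted p = 5.43e-09) and Atf3 (1.42, adjusted p = 7.49e-07) were higher by the log2 folds given over the 5 mice. The fold was called larger in Aged than in Young mice for 4 of the 24 genes, Egr1, Jun (difference of log2 folds 1.53 ± 0.41 (SE), adjusted p = 0.029), Socs3 (1.56 ± 0.43 (SE), adjusted p = 0.0416) and Hspa1a (1.85 ± 0.49 (SE), adjusted p = 0.0245). Over all genes, 0.808% were called for this difference in either direction. The heat shock gene Hspa1a was 564, 581, 8892, 969.6 and 3907 CPM in lymphatic sums, with Aged B high, and lost its call without Aged B (adjusted p = 0.542) or Aged D (0.157). Nfkbia, the inhibitor of NF-kappaB, was lower (log2 fold -1.15 ± 0.27 (SE), adjusted p = 0.000297). The mitochondrial share of the lymphatic cells was lower in the 5 mice, as given above, and its part in the result was not tested. In the lymphatic cells of all mice, Fos stood at 5429 CPM in cells with Ccl21a and 15652 CPM in cells without it. The same pairs were 4295 and 11154 for Jun, 1437 and 5879 for Socs3, and 1164.5 and 5505 for Atf3. Hspa1a, Hspa1b, Fosb, Klf4, Dusp1, Dnajb1 and Hsp90aa1 lay the other way. The share of cells with Ccl21a also moved with age, as given below, and its part in the result was not tested.

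Of 18 MHC genes, 16 were tested, 0 were higher and 2 were lower, a share near the 12.6% of all genes, with a median log2 fold of -0.31; 4 were lower without Aged B. The invariant chain Cd74 was 251, 0, 0, 60.6 and 349 CPM in lymphatic and 576, 484, 617, 669 and 2982 CPM in vascular sums (log2 fold -3.20 ± 0.37 (SE), adjusted p = 2.38e-16). H2-Aa was lower (log2 fold -1.26 ± 0.37 (SE), adjusted p = 0.00595) but not without Aged D (adjusted p = 0.297). Both genes mark antigen-presenting cells, and the summed level of 12 leukocyte markers was 0 to 20.2 CPM in lymphatic and 2.54 to 78.3 CPM in vascular sums, with 11 of the 12 at 0 in lymphatic cells; their part in the result was not tested.

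Markers of other cells differed between the types. Of 10 pericyte and smooth muscle markers, 7 were at 0 in the lymphatic sums, whose summed level was 0 to 63.5 CPM against 299 to 676 CPM in vascular sums. Tagln, the smooth muscle protein among the named genes, was at 0 in every lymphatic sum, at least 15-fold lower (adjusted p = 8.44e-16), and the part of pericyte RNA in it was not tested. The summed level of 11 epithelial markers was 950.4 to 2382 CPM in lymphatic and 645 to 1204 CPM in vascular sums, higher in 4 of 5 mice. Of the 10 tested, 1 was higher, 1 lower and 8 not called, with a median log2 fold of -0.51. The higher one, Lcn2, an epithelial and acute phase gene, counts in that sum (log2 fold 2.34 ± 0.29 (SE), adjusted p = 4.67e-14). Over all mice it stood at 590 CPM in lymphatic cells with Ccl21a, 892 CPM in those without and 128 CPM in vascular cells. The 5 erythrocyte markers were at 0 in lymphatic sums and summed to 6.98 to 2023 CPM in vascular sums, the 8 fibroblast markers summed to 149 to 475 CPM against 35.7 to 669 CPM, and the 5 mesothelial markers were at 0 in both.

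**Figure D2:**
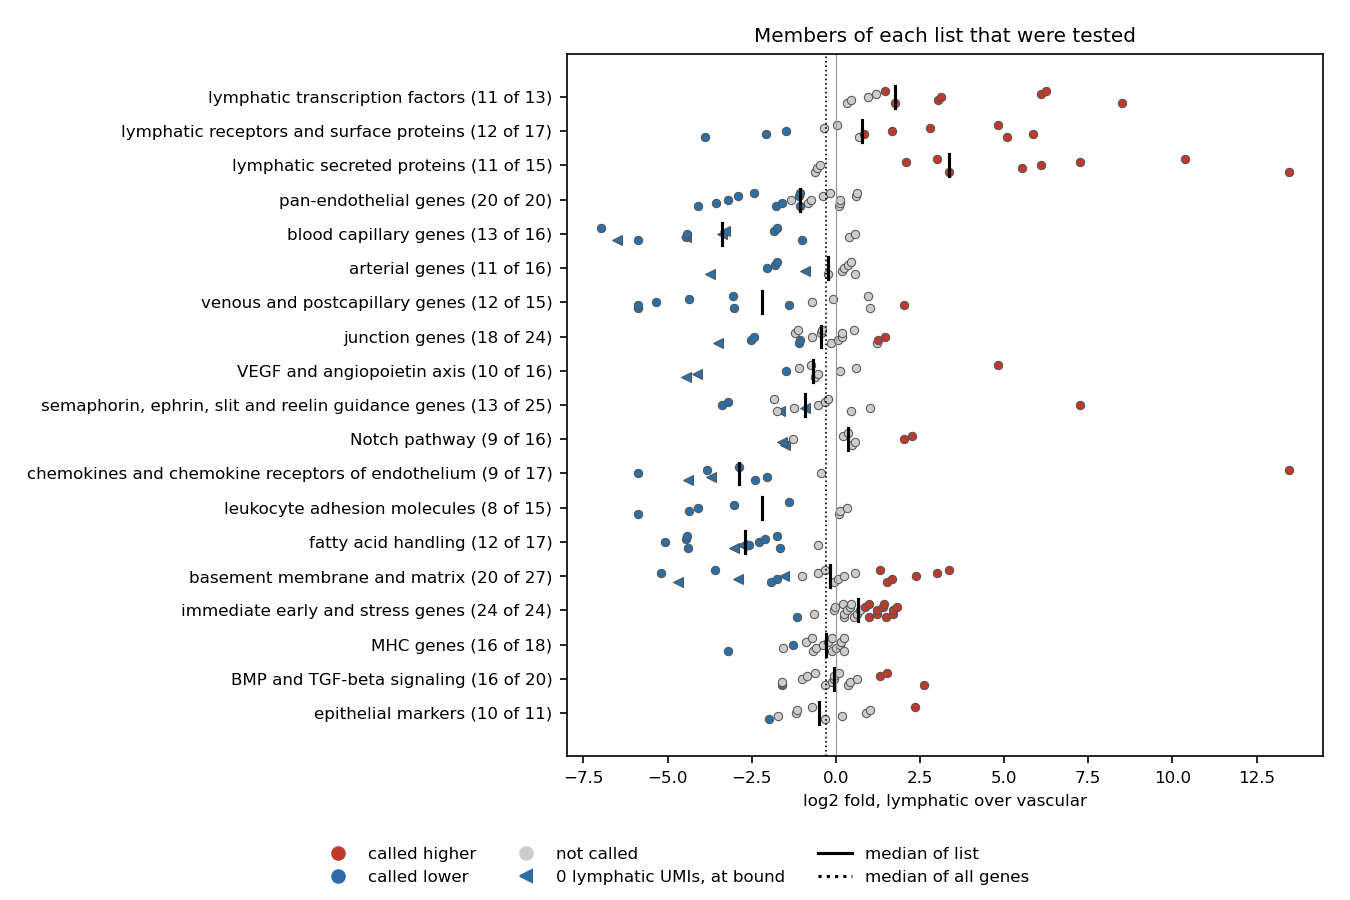
Log2 fold, lymphatic over vascular, of every tested member of each gene list, with the numbers of tested and listed genes beside the list names; each point is 1 gene. Lymphatic transcription factors and secreted proteins have medians of 1.74 and 3.36, and blood capillary and fatty acid genes medians of -3.39 and -2.69, with genes lacking lymphatic UMIs drawn at their bound as triangles; the dotted line marks the median of -0.29 over all genes tested.

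The cell type signatures of the study were drawn from these same cells and are not independent evidence of direction. Of the 36 genes of its lymphatic signature, all were tested, 35 were higher and 0 lower, with a median log2 fold of 2.10. All 15 genes of its vascular signature were lower, with a median of -5.09. The 15 called genes with the largest fitted fold that were lower in 5 of 5 mice all had 0 lymphatic UMIs. Among those not yet named, Tmem252 was at least 42.6-fold lower, C1qtnf9 at least 13.4-fold, Adgrg1 at least 10.3-fold, Pdzd2 at least 9.29-fold, Lmo1 at least 9.04-fold and Ifi203 at least 8.94-fold lower.

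Within the lymphatic type, Ccl21a was present in large amounts or not at all. Of the 28 cells, 11 held 56 to 826 UMIs and 17 held 0. Cells with Ccl21a made up 3 of 5 in Young A, 0 of 1 in Young B, 3 of 3 in Young C, 2 of 2 in Aged A, 1 of 5 in Aged B, 1 of 7 in Aged C and 1 of 5 in Aged D. In the compared mice this was 6 of 8 Young and 3 of 17 Aged cells. The median cell with Ccl21a held 5935 UMIs of 2171 genes, and the median cell without it 6166 UMIs of 1747 genes. The division was chosen after these values were seen and is given as a description with no test.

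Other lymphatic genes followed the division in part. Lyve1 had 79 UMIs in 8 of the 11 cells with Ccl21a and 0 UMIs in the 17 without. Reln had 23 UMIs (8 cells) against 2 (2 cells), and Stmn2, a microtubule regulator, 34 (8 cells) against 1 (1 cell). Flt4 had 33 UMIs (10 cells) against 9 (7 cells), Mmrn1 98 (11 cells) against 29 (10 cells), and Gpihbp1 34 (8 cells) against 12 (4 cells). Cells with Ccl21a thus held most UMIs of Lyve1, Reln, Flt4 and Mmrn1. Prox1 was found on both sides, with 15 UMIs in 7 of 11 cells and 17 UMIs in 10 of 17 cells, and so was Tbx1 (10 UMIs in 5 cells and 14 in 11 cells). Maf (22 UMIs in 10 cells and 17 in 8) and Pdpn (26 in 10 and 25 in 8) were found in more of the cells with Ccl21a.

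The 17 cells without Ccl21a carried other genes in common. Apolipoprotein E (Apoe), a lipid carrier, had 629 UMIs over 17 of 17 of these cells, between 4 and 100 in each, and 3 UMIs in 3 of the 11 cells with Ccl21a, at most 1 in each. Plvap had 129 UMIs over 17 of 17 cells against 4 in 2 of 11. Procr, the endothelial protein C receptor, had 142 UMIs over 17 cells against 6 in 4, Cpe, a carboxypeptidase, 39 over 16 cells against 0, and Ptgs1, a cyclooxygenase, 33 over 14 cells against 0. Sparc had 21 UMIs over 14 cells against 0, and Ackr4 14 over 6 cells against 0. Several of these are genes of vascular cells too: Apoe was found in 96.4% of the 1819 vascular cells, Plvap in 74.5% and Sparc in 92.8%, against 10.9% for Cpe and 0.220% for Ackr4. Klf2 (1459 UMIs in 17 cells against 300 in 11) and Gdf15 (337 in 13 cells against 48 in 8) also had more UMIs in the cells without Ccl21a. Flt1 and Sox17 stayed at 0 in all 28 cells. The division held inside each compared mouse that had both kinds of cell: in Young A the 2 cells without Ccl21a held 61 and 52 Apoe UMIs and the 3 with it 0. The 2 cells without any of the 4 markers and the Scrublet doublet belong to the 17 without Ccl21a.

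**Figure D3:**
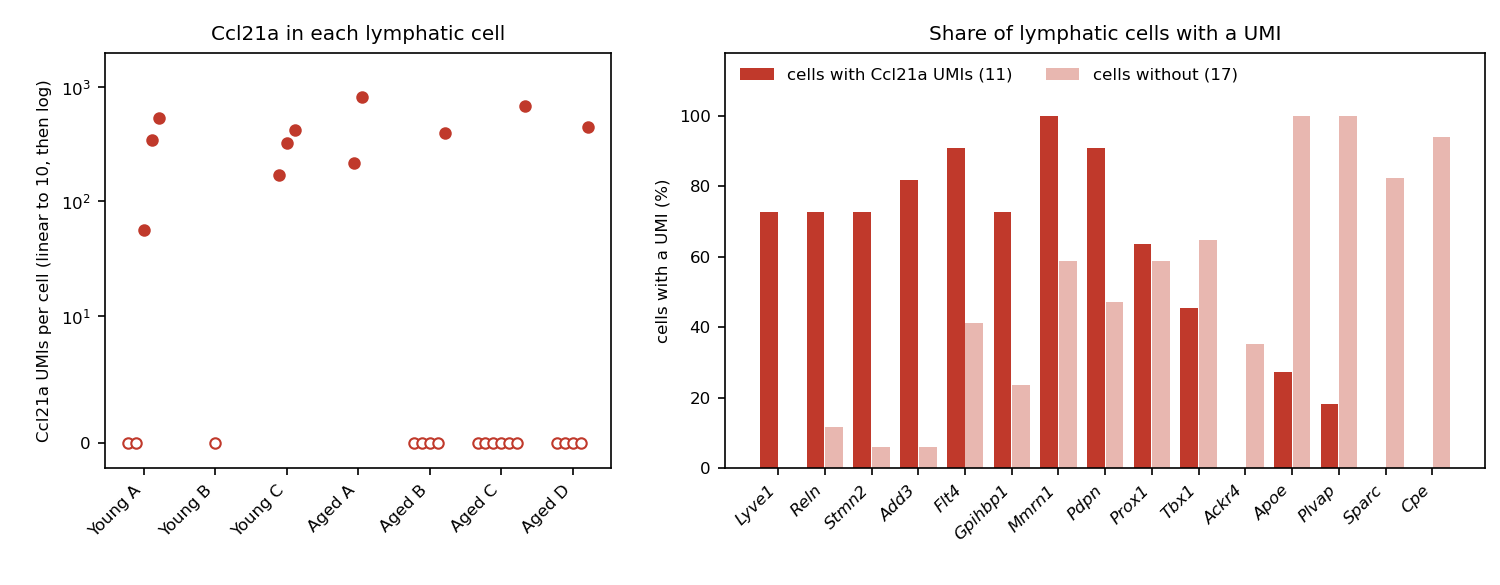
Left, Ccl21a UMIs in each of the 28 lymphatic cells by mouse (axis linear to 10 and log above); right, percent of the 11 cells with and the 17 cells without Ccl21a that hold a UMI of each gene. Cells hold either 0 or at least 56 Ccl21a UMIs; Lyve1 is found in 8 of 11 against 0 of 17 cells, and Apoe in 3 of 11 against 17 of 17.

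Whether the difference between the types differed with age was tested as the interaction of cell type and age, with 2 Young and 3 Aged mice. Of 3838 genes, 31 (0.808%) were called, 17 with a larger lymphatic to vascular fold in Aged mice and 14 with a smaller one. Without the mouse as a block the count was 16, DESeq2 called 10, and without Young C, which leaves 1 Young mouse, it was 7. Without Aged B it was 19 and without Aged C 14. Stmn2 stood at 470.1, 475, 0, 80.8 and 0 CPM in lymphatic and 55.4, 46.7, 236, 279 and 157 CPM in vascular sums. It was above the vascular sum in both Young mice and below it in the 3 Aged mice (difference of log2 folds, aged minus young, -5.83 ± 0.79 (SE), adjusted p = 8.35e-10). Fgl2, at 846, 1689.5, 149, 768 and 286 CPM in lymphatic and 19.4, 31.6, 107, 74.9 and 75.5 CPM in vascular sums, was higher in lymphatic cells of every mouse and less so in Aged mice (-3.29 ± 0.55 (SE), adjusted p = 2.77e-06). Nts (-5.32 ± 0.74 (SE), adjusted p = 1.45e-09) was called as well, but rests on the single cells given above.

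Pcp4l1, Anxa1 and Ptpre also had a smaller lymphatic to vascular fold in Aged mice. Pcp4l1 was 219, 369.6, 0, 242 and 31.8 CPM in lymphatic and 15.5, 4.12, 94.3, 96.3 and 64.7 CPM in vascular sums (-4.20 ± 0.83 (SE), adjusted p = 0.000408). Anxa1, annexin A1, was 157, 369.6, 0, 40.4 and 127 CPM against 45.7, 81.1, 249, 235 and 225 CPM (-4.01 ± 0.86 (SE), adjusted p = 0.00117), and Ptpre, a phosphatase, 219, 211, 99.3, 80.8 and 63.5 CPM against 44.2, 68.7, 175, 456 and 278 CPM (-4.09 ± 0.84 (SE), adjusted p = 0.000815). For these genes every Aged vascular sum lay above every Young one, and the lymphatic sums did not. Timp2, an inhibitor of metalloproteinases, was 877, 1056, 348, 404 and 381 CPM against 90.4, 115, 268, 194 and 175 CPM (-2.39 ± 0.51 (SE), adjusted p = 0.00117). Sparc, at 62.7, 0, 199, 162 and 191 CPM in lymphatic and 2984, 3406, 923, 762 and 587 CPM in vascular sums, went the other way (4.23 ± 0.89 (SE), adjusted p = 0.000889), and so did Egr1 (2.11 ± 0.44 (SE), adjusted p = 0.000889), at 1316, 1267, 2434, 1798 and 2319 CPM against 2477, 1593, 709, 879.7 and 647 CPM. Trp53i11 was called with both Young lymphatic sums at 0 (adjusted p = 0.000815), so its fitted difference depends on the prior count.

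The share of cells with Ccl21a, 6 of 8 in Young and 3 of 17 in Aged mice, moved with these calls, and its part in them was not tested. Stmn2, Fgl2 and Timp2 belonged to the genes with more UMIs in cells with Ccl21a (34 against 1, 99 against 40 and 64 against 39), and Sparc to those with more in cells without it (0 against 21). Other genes with a smaller fold in Aged mice divided less: Pcp4l1 had 16 against 12 UMIs, Anxa1 11 against 8, Ptpre 11 against 11 and Nts 82 against 94. Egr1 had 91 against 200 and Trp53i11 2 against 11. These counts cover the lymphatic cells of all mice. They include the 2 cells of Aged A, which were outside the sums and both held Ccl21a, with 7 Stmn2, 26 Fgl2, 14 Timp2 and 0 Sparc UMIs. Markers of other cells also moved with age in the vascular sums. The 8 fibroblast markers summed to 462 and 669 CPM in the Young and to 35.7 to 45.1 CPM in the Aged vascular sums (376 and 475 against 149 to 303 CPM in lymphatic sums), and the 5 erythrocyte markers to 2020.5 and 2023 against 6.98 to 359 CPM. Their part in the interaction was not tested, Sparc being a gene of fibroblasts too. Of the calls named, Pcp4l1 (adjusted p = 0.192), Sparc (0.166), Egr1 (0.0591), Timp2 (0.071) and Anxa1 (0.166) were lost without Young C. Ptpre (0.179) and Timp2 (0.0619) were lost without Young A, and Trp53i11 without Aged C (0.138).

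**Figure D4:**
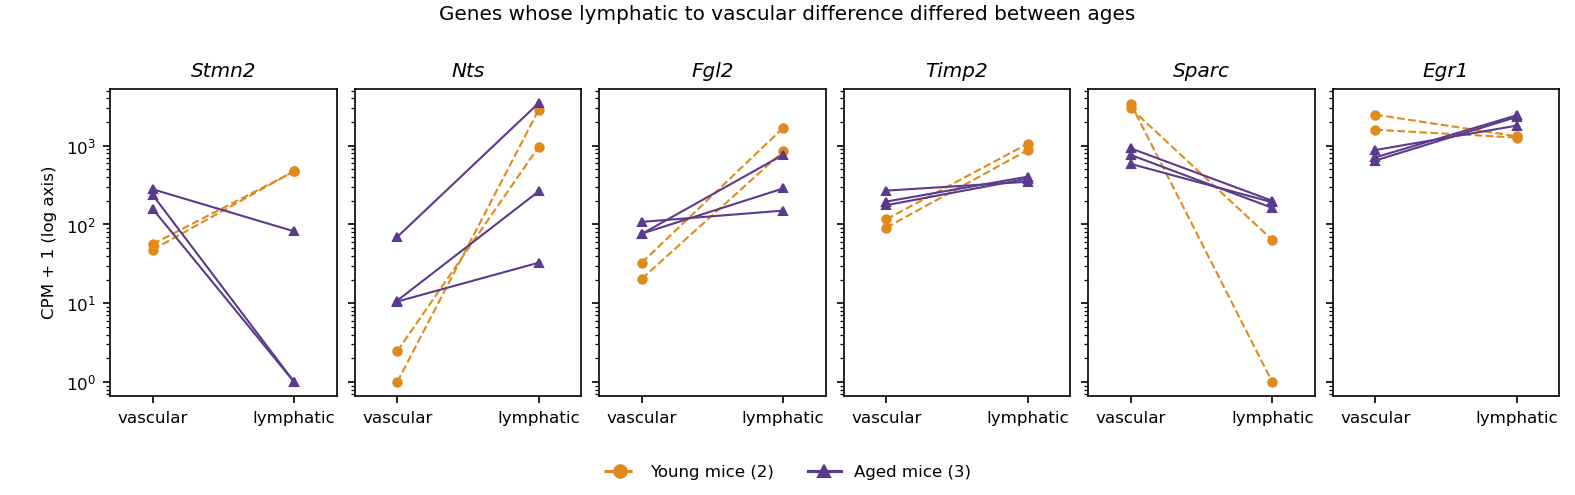
Vascular and lymphatic level, as CPM + 1 on a log axis, of genes called for the interaction of cell type and age; each line joins the sums of 1 mouse. The lines of Stmn2 rise from vascular to lymphatic in the 2 Young mice and fall in the 3 Aged mice.

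Lymphatic cells were a small share of the endothelium at either age. In Young mice they made up 1.17% ± 0.882 (SD, n = 3) of endothelial cells. The share was 2.14% ± 1.09 (SD, n = 4) for Aged mice, a difference that did not pass an exact two-sided permutation test (0.969 points, p = 0.371). As a share of all stromal cells they were 0.242% ± 0.120 and 1.58% ± 0.979, with every Aged mouse above every Young mouse (exact permutation p = 0.0571, where 0.0286 is the smallest that 3 against 4 mice allow). As a share of all cells they were 0.136% and 0.284% (exact p = 0.229). A share of captured cells also depends on how cells were released from the tissue. UMIs of the cycling genes Mki67 or Top2a were found in 0 of 28 lymphatic cells, which allows a share of up to 10.7%, and in 44 of 1819 vascular cells (2.42%), so a difference was not detectable at this number of cells. The cell cycle phase deposited for each cell was G2M in 10 of 28 lymphatic (35.7%) and 209 of 1819 vascular cells (11.5%), and no cycling is read from these phase calls alone.

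The pattern of Prox1 over the 13 cell types was most like that of Mfsd7c (Pearson r = 0.970 on log2(CPM + 1) of the mean levels), Gldc (0.968), Gm26819 (0.962), Gm16576 (0.959) and Cntnap1 (0.956). Each of these rested on 1 or 2 lymphatic UMIs in the compared mice, and the likeness is given as a description.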

How the data were processed

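The authors mapped reads of 10× Chromium 3′ v2 libraries to mm10 with Cell Ranger 2.0 and deposited whole UMI counts of 27998 genes for 13684 filtered cells, with a table of cell types. Libraries held 6652599 to 16999625 UMIs. Here the counts of each cell type were added up within each mouse. Genes passing filterByExpr were fitted with edgeR 4.0.16 (quasi-likelihood test, TMM, Benjamini-Hochberg adjustment over all tested genes) in R 4.3.3. The mouse was a block because both sums came from the same animal. Calls needed an adjusted p under 0.05 and 1.5-fold (no fold minimum for the interaction of type and age). Adjusted p-values in the report are from this test.

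Named genes were the 4 markers, the 15 genes with the largest fold in each direction that moved alike in every mouse, the 10 interaction genes with the smallest p and members of the lists. The members and lists were chosen with earlier results of these data known; the signatures came from the study. Single values were compared by exact permutation or sign-flip tests. Each mouse is an animal of its own. On simulated data 72.4% of 4-fold and 12.5% of 2-fold changes were recovered over the genes tested. False calls numbered 13 beside 134 true ones at 4-fold and 1 beside 23 at 2-fold. The simulation gave every gene the same dispersion and let mice differ in depth only, so it was simpler than these data. Alternatives were DESeq2 1.42.0, RLE factors, no filter, thinned sums, no doublets, other mice, no block, limma 3.58.1 on mean CPM, and leaving out each mouse. Counting intervals cover counting error only. Promoter sequences are from RefSeq.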

Additional observations from a re-analysis of the deposited data

Results flagged for a closer look

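Of the 22 groups of values tested for 1 apart from the others, 1 stood out. The groups were levels of named genes in the lymphatic sums, paired differences of depth and quality, and lymphatic shares in the Aged mice. In the 5 lymphatic sums, Slc45a3 (prostein) stood apart in its lowest value, that of Aged B. The gap to the nearest of the others took 0.845 of the range of log2(CPM + 1), above the critical value of 0.71. Chance alone gives such a gap in about 1 of 20 groups. Slc45a3 held only 14 UMIs over all lymphatic cells, and 1 UMI was worth 20.2 to 52.8 CPM in a lymphatic sum.

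The lymphatic to vascular difference differed between Aged and Young mice for 31 genes by the edgeR interaction test. The 10 with the smallest p had differences of log2 folds, aged minus young, of -5.83 (Stmn2), -5.32 (Nts), -3.29 (Fgl2), -4.20 (Pcp4l1), 11.84 (Trp53i11), -4.09 (Ptpre), 4.23 (Sparc), 2.11 (Egr1), -2.39 (Timp2) and -4.01 (Anxa1). The value of Trp53i11 depends on the prior count, because both Young lymphatic sums were at 0. Nts rested on single cells in Aged B and Young C. Pcp4l1, Sparc, Egr1, Timp2 and Anxa1 lost their calls without Young C.

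Outside the comparison, the 2 lymphatic cells of Aged A held 1043 Ccl21a UMIs, which puts both with the cells of high Ccl21a, while 1 of 5, 1 of 7 and 1 of 5 lymphatic cells held Ccl21a in the other Aged mice. The part of this share in the age differences was not tested.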

How the results depend on the processing

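The 688 genes called between the types became 1438 without the filter on low counts, 97 with the vascular sums thinned to the lymphatic totals (407 genes tested), 404 by limma on mean CPM over cells and 548 to 714 with each mouse left out in turn. DESeq2 called 479, and no gene called under both a tested alternative and the reported settings changed direction. Without the mouse as a block 488 were called, and 29 named calls were lost. The 31 interaction calls became 10 with DESeq2, 54 with RLE factors, 16 without the filter, 7 with the mice that had 5 or more lymphatic cells, 16 without the block and 0 with thinned sums (69 at an unadjusted p under 0.05). They ranged from 7 to 31 with each mouse left out, being 7 without Young C, 14 without Aged C and 19 without Aged B; without a Young mouse the remaining one is assumed to vary like the others. Fn1 turned from higher to lower in Aged mice only (log2 fold -1.65) and by limma on mean CPM (-0.76). The mitochondrial difference turned to 0.303 points when mice with 1 or more lymphatic cells entered. The causes were not tested, apart from fewer genes or samples in the thinned and reduced sets. With each mouse left out, the difference in the lymphatic share of endothelial cells ranged from 0.453 to 1.40 points, that in median UMIs from 541.6 to 1276, in median genes from 211.9 to 387.6 and in mitochondrial percent from -0.474 to -0.296. The mice that lost most named calls between the types when left out were Aged C (12) and Young A (9). Lymphatic depth limits genes of low level: 66 tested genes had 0 lymphatic UMIs.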
